A study of Mus musculus with 52 samples.

Results

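The 10 genes described here are Tsc22d3, Sgk1, Fkbp5, Plin4, Pdk4, Ddit4, Zbtb16, Cdkn1a, Nr3c1 and Angptl4, chosen by name from 21999 genes as genes that respond to glucocorticoids. Their read counts and RPKM values (reads relative to gene length and library total) were followed through 28 bulk RNA-seq libraries of the mouse suprachiasmatic nucleus (SCN), the hypothalamic nucleus that holds the circadian pacemaker. All animals were males of 11-12 weeks, and each library pooled 6 pairs of SCN. The light-pulse experiment used wild-type mice. Its dark groups were taken at CT17, with 4 libraries, and at CT23, with 2, where CT is circadian time, the time on the animal's internal clock. Its light groups, exposed from CT17 onwards, were taken after 0.5 h, with 4 libraries, and after 1 h, 3 h and 6 h, with 2 libraries at each time. In the Npas4 experiment, Npas4-/- mice and wild-type littermates were taken in the dark or after light of 1 h at CT17, and each of these 4 groups had 3 libraries. Npas4 encodes a transcription factor induced by neuronal activity.

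Glucocorticoids bind the receptor encoded by Nr3c1, which then moves to the nucleus, binds DNA and raises or lowers the transcription of target genes. In nocturnal rodents blood corticosterone follows a daily rhythm that peaks around the start of the active night, and SCN output drives that rhythm. Neurons of the adult SCN are known for holding little of the receptor, whereas glia and vessel cells of the brain hold it. No hormone was measured in the data used here.

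In the light-pulse experiment 12 libraries whose title lacks the suffix s held 12477382 to 15369985 counted reads, the 4 with it 27413860 to 30149286, and the 12 libraries of the Npas4 experiment 26638939 to 32097975. What the suffix means is not given in the sources used here. In the light-pulse experiment the first principal component took up 30.05% of the variance, and along it the 4 libraries with the suffix lay between 10.09 and 34.71, and the library of 0.5 h of light, replicate 2, which lacks it, lay at 35.25. The other 11 lay between -19.33 and -1.263. All 11 markers of SCN neurons were above 0 in every group, with a summed level of 1249 to 1911 CPM (counts scaled to the TMM-adjusted library total) in the light-pulse experiment. Npas4 reads did not check the genotype labels: the level was 8.64, 8.20 and 8.34 CPM in wild-type dark libraries and 5.27, 10.1 and 10.4 CPM in the libraries labelled Npas4-/- in the dark.

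The upstream sequences of Sgk1 and Tsc22d3 are shown. Both genes were lower at dark CT23 than at dark CT17. Their start sites differ in the letters that the receptor is known to prefer. Plin4 was lower at dark CT23 as well, and its sequence is not shown. Capitals mark matches, on either strand, to TGTTCT, the hexamer of the glucocorticoid response element, to the palindromic core of that element, which is GNACA and TGTNC with any 3 bases between them, and to the E-box CACGTG, the letters bound by the clock factors CLOCK and BMAL1. The cAMP response element TGACGTCA was searched too and occurs in none of the listed promoters of the 10 genes. Each sequence is the 250 bases before a start site, from RefSeq on GRCm38.p6, 5′ to 3′ along the gene. They are Sgk1 start site 5, of 6 listed, at chr10:21993640-21993889 (plus strand) and, of 3 listed for Tsc22d3, the start sites at chrX:140600523-140600772 and chrX:140542669-140542918 (both minus strand).
Sgk1 start site 5: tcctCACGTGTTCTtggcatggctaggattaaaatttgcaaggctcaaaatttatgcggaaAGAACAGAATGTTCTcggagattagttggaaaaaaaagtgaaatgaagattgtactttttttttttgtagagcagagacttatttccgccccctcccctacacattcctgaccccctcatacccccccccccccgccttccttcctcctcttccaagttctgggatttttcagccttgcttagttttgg
Tsc22d3 distal start site: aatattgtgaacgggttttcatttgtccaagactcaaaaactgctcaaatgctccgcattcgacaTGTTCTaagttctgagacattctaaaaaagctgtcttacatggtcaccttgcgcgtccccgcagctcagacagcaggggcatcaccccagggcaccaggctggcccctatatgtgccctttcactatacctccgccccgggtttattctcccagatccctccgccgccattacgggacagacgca
Tsc22d3 proximal start site: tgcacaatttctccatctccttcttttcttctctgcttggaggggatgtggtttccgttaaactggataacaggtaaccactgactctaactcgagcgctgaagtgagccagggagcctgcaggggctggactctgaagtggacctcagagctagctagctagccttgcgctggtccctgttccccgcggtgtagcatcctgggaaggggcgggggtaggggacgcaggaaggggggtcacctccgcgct
The Sgk1 sequence holds the full core, GAACAGAATGTTC, beginning 188 bases before the start site. It also holds an E-box whose last letters overlap another hexamer. The distal Tsc22d3 sequence has 1 hexamer and the proximal one has none of the searched motifs. The remaining Tsc22d3 sequence, which lies between them at chrX:140548572-140548821 and is not shown, has none either. The listed promoter of Plin4 has none of the searched motifs. RefSeq listed 15 start sites for 7 of the 10 genes. The full core occurred in 1 of these 15 promoters, counted from 250 bases before to 50 bases after the start, and in 0.475% of all 32851 listed promoters. The hexamer occurred in 4 of the 15, which belong to 2 genes (Sgk1 and Tsc22d3), and in 19.0% of all promoters. The E-box occurred in 2 of the 15 (Sgk1 and Fkbp5) and in 7.15% of all. A match is a description of the letters and not a binding site.

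On GRCm38.p6 the 5 genes that were called in at least 1 comparison lie at chrX:140539528-140600522 (Tsc22d3), chr10:21882184-21999903 (Sgk1), chr17:56100587-56109948 (Plin4), chr17:29090979-29100722 (Cdkn1a) and chr17:33774900-33781575 (Angptl4). Per gene length, Nr3c1 was the most abundant of the 10 in the light-pulse experiment, with a median of 21.1 RPKM and a range of 18.6 to 23.1. Tsc22d3, which encodes the anti-inflammatory leucine zipper protein GILZ, followed at a median of 17.2 RPKM with a range of 6.46 to 20.3, overlapping Nr3c1. Next came Ddit4 at 9.84 RPKM, Sgk1 at 7.16, Cdkn1a at 6.47 and Fkbp5 at 4.73. Zbtb16 at 3.35, Pdk4 at 2.99, Plin4 at 2.01 and Angptl4 at 1.67 RPKM were the least abundant by median. In the Npas4 experiment, whose table was normalised separately, Ddit4 (26.6 RPKM) and Tsc22d3 (26.2) stood above Nr3c1 (16.5). The least abundant gene rested on 46 to 252 reads per library in the light-pulse experiment, so its precision was lower than that of Nr3c1, which had 1784 to 4946.

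The comparison of dark CT23 with dark CT17 asks how these genes stand late in the subjective night against its middle, with no light given. Tsc22d3, Sgk1 and Plin4 were lower at CT23, by 0.82, 0.86 and 1.12 on the log2 scale. The other 7 genes did not pass the test. The share of all 14524 genes tested that were called in either direction was 0.269%, with 0.103% higher and 0.165% lower, against 3 of the 10 here. Called means an adjusted p under 0.05 in edgeR's quasi-likelihood test with Benjamini-Hochberg adjustment across every gene tested.

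Tsc22d3 measured 72.4, 72.9, 78.3 and 75.5 CPM in the 4 dark CT17 libraries (replicates 1, 1s, 2 and 2s) and 42.2 and 42.0 CPM in the 2 dark CT23 libraries. The groups did not overlap, and the spread within each was small against the gap between them. The log2 change was -0.82 ± 0.08 (SE; adjusted p = 0.000197, edgeR), a level of 0.565 of that at CT17, and only 1 gene of all those tested had a smaller p. Tsc22d3 remained called in all 14 alternative settings of this comparison that were run, with a largest adjusted p of 0.00726.

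Sgk1, which encodes the serum- and glucocorticoid-regulated kinase that acts on ion channels and transporters, measured 30.3, 43.3, 34.4 and 53.6 CPM at CT17 and 17.4 and 20.1 CPM at CT23. Both CT23 libraries were below all 4 CT17 libraries, and within CT17 the 2 libraries with the suffix s were the highest. The log2 change was -0.86 ± 0.17 (adjusted p = 0.0458, edgeR). Plin4, which encodes a coat protein of lipid droplets, measured 10.6, 13.6, 11.4 and 18.5 CPM at CT17 and 6.43 and 4.83 CPM at CT23, again without overlap. Its log2 change was -1.12 ± 0.21 (adjusted p = 0.0392, edgeR). Both calls stood near the threshold: Sgk1 lost its call in 7 and Plin4 in 6 of 14 settings. Sgk1 was lost without any 1 of its 6 libraries (adjusted p of up to 0.277) and Plin4 without any 1 of them but CT17 replicate 2s (up to 0.443). In the 12 libraries without the suffix, the changes were -0.79 for Sgk1 (adjusted p = 0.251) and -0.98 for Plin4 (adjusted p = 0.154).

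Zbtb16, which encodes the zinc-finger transcription factor PLZF, measured 13.4, 16.6, 19.4 and 18.1 CPM at CT17 and 11.2 and 10.9 at CT23. The groups did not overlap, but the gene did not pass, at a log2 change of -0.62 (adjusted p = 0.163, edgeR). Angptl4, a secreted inhibitor of lipoprotein lipase, was the only one of the 10 with a positive log2 change. It measured 5.54, 4.73, 4.45 and 4.78 CPM at CT17 and 6.75 and 7.71 at CT23, a difference of 0.50 on the log2 scale (adjusted p = 0.39). The receptor gene Nr3c1 measured 156, 152, 172 and 161 CPM at CT17 and 148 and 173 CPM at CT23, and the groups overlapped (log2 change -0.05 ± 0.08). Fkbp5, which encodes a co-chaperone that lowers the receptor's affinity for hormone, had a log2 change of -0.08 ± 0.13. Pdk4, a kinase that inhibits pyruvate dehydrogenase, had -0.33 ± 0.17, Ddit4, an inhibitor of mTORC1, -0.10 ± 0.14, and Cdkn1a, the cell-cycle inhibitor p21, -0.02 ± 0.14.

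**Figure D1:**
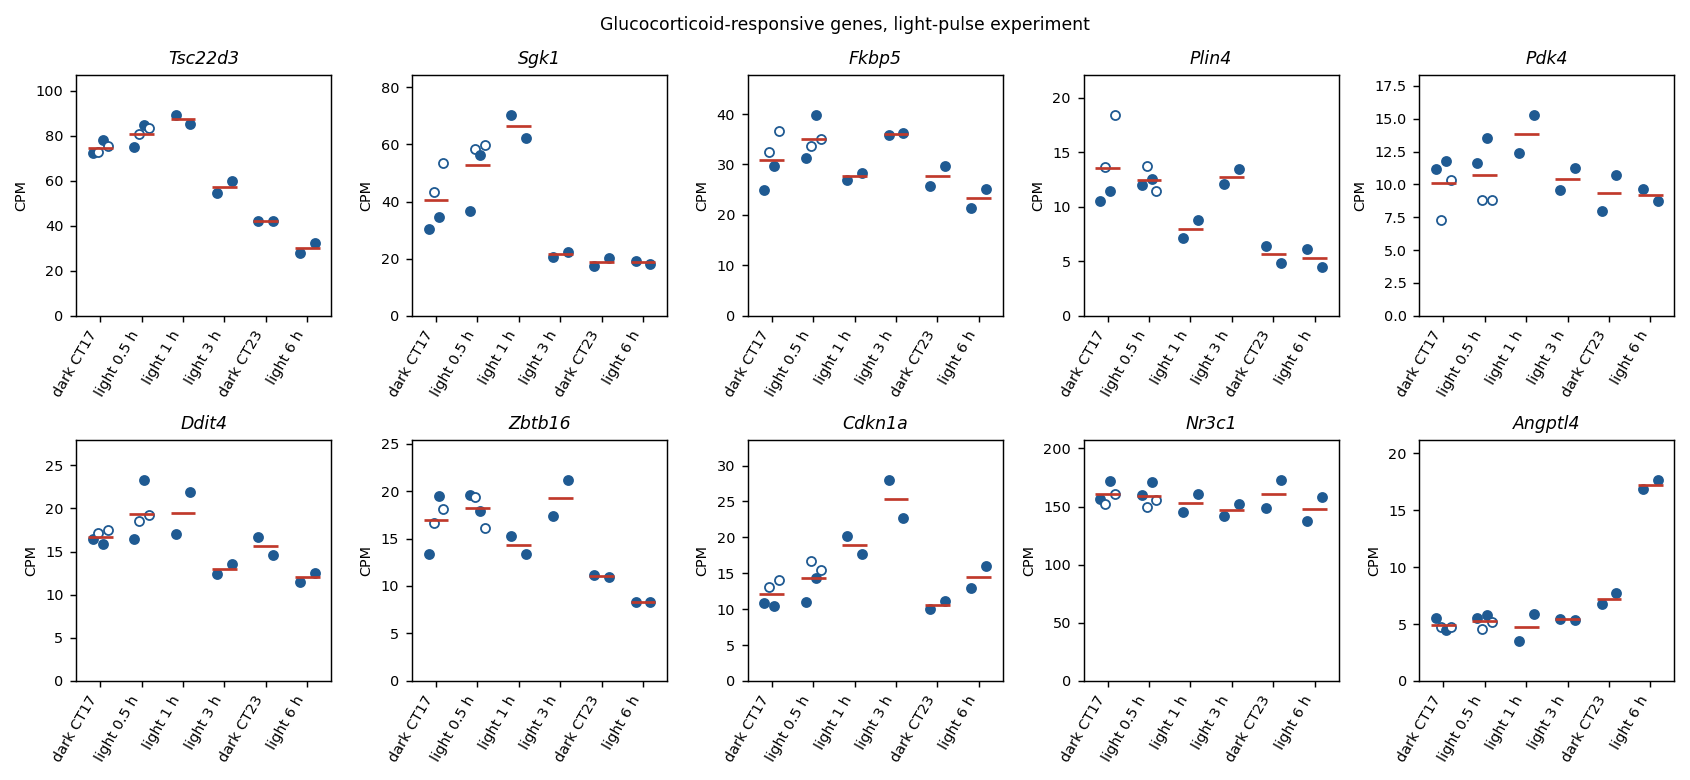
Level of each of the 10 genes in the 16 light-pulse libraries, in CPM on axes that start at 0, with 1 point per library, open points for libraries with the suffix s and a red line at the group mean. The 2 dark CT23 libraries lay below all dark CT17 libraries for Tsc22d3, Sgk1, Plin4 and Zbtb16, and Angptl4 was highest after 6 h of light.

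A list of other glucocorticoid-induced genes was read beside the 10. Like the 10, it was chosen with earlier results of these data known and is not independent of them. Of its 24 genes 23 were tested, and 6 were lower and none higher at CT23. The log2 change was negative for 22 of 23, with a median of -0.307, against 7490 of 14524 genes and a median of -0.00558 over all genes tested. By smallest p the first 4 were Cables1, a regulator of cyclin-dependent kinases (-0.41, adjusted p = 0.0142), Fam107a, an actin-binding protein (-0.41, adjusted p = 0.0181), Txnip, an inhibitor of thioredoxin (-0.76, adjusted p = 0.0249), and the transcription factor Klf15 (-0.52, adjusted p = 0.0392), all in edgeR. Klf15 measured 27.5, 30.5, 33.1 and 31 CPM at CT17 and 21.1 and 20.8 CPM at CT23, so that the groups did not overlap. Txnip overlapped as measured, since its libraries with the suffix were low (46.1 and 55.7 CPM, against 69.4 and 84.7). In the 12 libraries without the suffix 0 of the 23 were called and 22 were negative, and there only 3 of all genes were called. With 1 library left out at a time, 0 to 6 were called.

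Of 13 tested genes of the receptor machinery (chaperones, co-regulators, Nr3c2 for the mineralocorticoid receptor and the hormone-converting Hsd11b1), none was called in edgeR and none had an unadjusted p under 0.05, with a median log2 change of 0.00498. Of 10 glucocorticoid-induced genes that neuronal activity also induces, 1 was lower, Rasd1, a small GTPase (-0.68, adjusted p = 0.0152). None of 17 PPAR and fatty acid oxidation genes, 11 p53 targets and 11 ATF4 stress genes was called in edgeR. The counts at an unadjusted p under 0.05 were 1, 5 and 4, against 1482 of all 14524 genes.

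**Figure D2:**
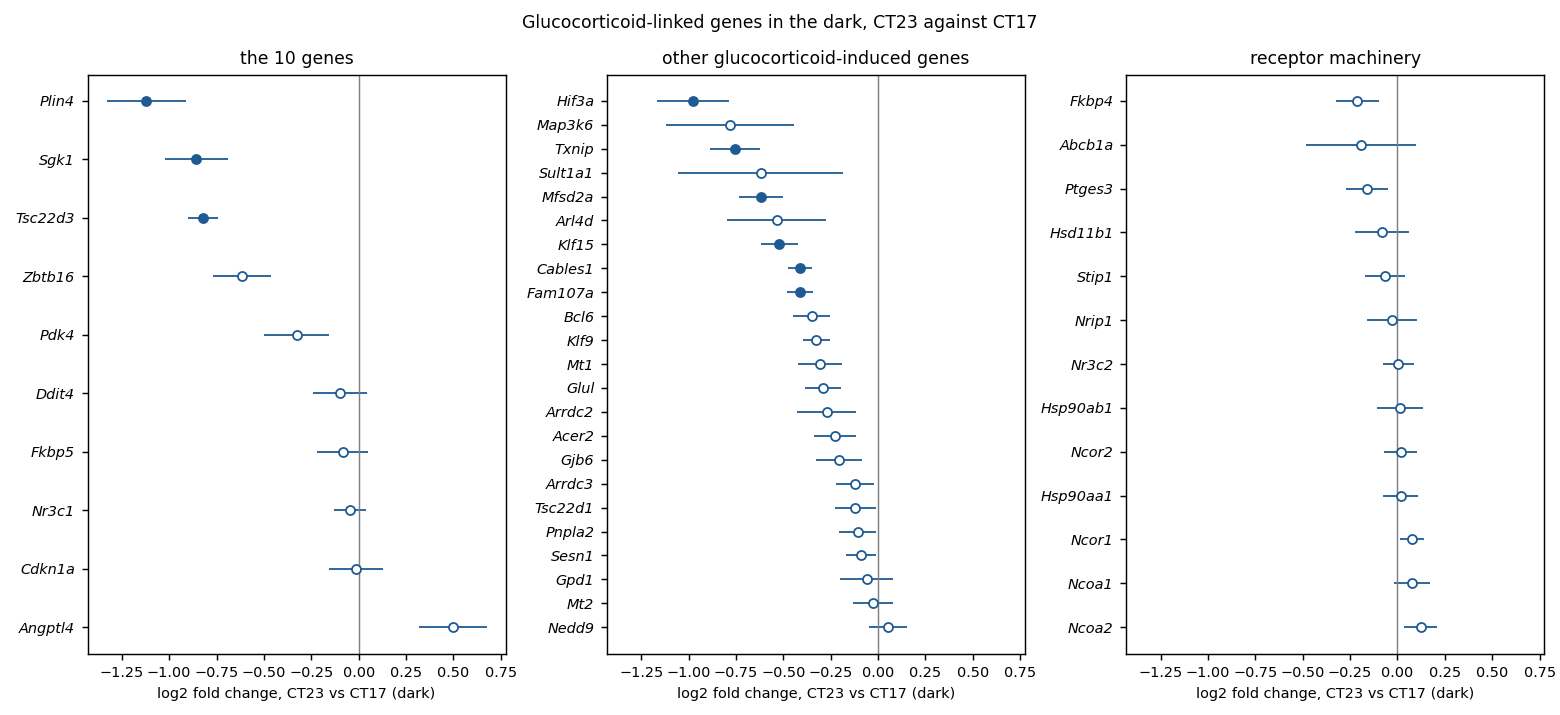
Log2 fold change of dark CT23 against dark CT17 with its SE for the 10 genes, the 23 tested genes of the glucocorticoid-induced list and the 13 tested genes of the receptor machinery, with filled points for genes called at an adjusted p under 0.05. Called genes lay left of 0 in the first 2 panels, and the receptor machinery held none.

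Markers of other cells moved in the same comparison, and not all lists in the same direction. The summed level of 10 oligodendrocyte markers was 7833 to 9192 CPM at CT17 and 6297 to 7330 CPM at CT23. The 5 red blood cell markers summed to 106 to 272 CPM at CT17 and 60.6 to 90.6 CPM at CT23. All 8 meningeal fibroblast markers had negative log2 changes, with none at an unadjusted p under 0.05. Their sum was 318 CPM in CT17 replicate 2s. It was 87.5, 87.2 and 90.6 CPM in CT17 replicates 1, 1s and 2, near the 89.6 and 94.2 CPM at CT23. All 10 astrocyte markers had negative log2 changes too, with a median of -0.109 and 2 at an unadjusted p under 0.05, although their measured sums overlapped, at 4769 to 6917 CPM at CT17 and 5770 to 6122 CPM at CT23. Vessel markers went mostly the other way. Log2 changes were positive for 8 of 10 endothelial markers (median 0.16) and 4 of 6 pericyte markers (median 0.14), with 0 at an unadjusted p under 0.05. Of 8 microglia markers 4 were positive and 4 negative. No marker of these lists was at 0, and none of these lists held a called gene. Their part in the result was not tested. In pooled tissue, fewer cells of a type and less RNA per cell cannot be told apart.

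The next comparisons ask how light changed the 10 genes. Light of 0.5 h, 1 h and 3 h was set against the same 4 dark CT17 libraries. The light-pulse experiment held no dark library between CT17 and CT23. The duration of light and the passing of time therefore cannot be told apart in these comparisons. None of the 10 was called at 0.5 h (0.468% of all genes in edgeR). At an unadjusted p under 0.05 there were 3 of the 10 and 677 of all 14524 genes, and DESeq2 also called none, as did edgeR without replicate 2 of 0.5 h. Sgk1 measured 36.5, 58.4, 56.4 and 59.7 CPM after 0.5 h (replicates 1, 1s, 2 and 2s), with a log2 change of 0.39 (adjusted p = 0.308). At 0.5 h all 8 meningeal fibroblast markers had positive log2 changes, with a sum of 987 CPM in replicate 2.

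At 1 h Sgk1 and Cdkn1a were higher than at dark CT17, against 1.27% of all genes called in either direction (1.11% higher and 0.158% lower). Sgk1 measured 70.4 and 62.4 CPM, above the highest CT17 library at 53.6 CPM, with a log2 change of 0.97 ± 0.15 (adjusted p = 0.00129, edgeR). Cdkn1a measured 10.8, 13.1, 10.5 and 14.01 CPM at CT17 and 20.2 and 17.6 CPM at 1 h, with a log2 change of 0.83 ± 0.14 (adjusted p = 0.00274, edgeR). With no technical term in the model neither was called (0.70, adjusted p = 0.122 for Sgk1, and 0.63, adjusted p = 0.0874 for Cdkn1a), and Cdkn1a was lost without replicate 1 of 1 h (adjusted p = 0.0876). Tsc22d3 measured 89.4 and 85.5 CPM, both above all CT17 libraries, but the gene did not pass, at a log2 change of 0.23 (adjusted p = 0.245). Plin4 went the other way at 7.15 and 8.81 CPM, below all CT17 libraries, a difference of -0.61 on the log2 scale (adjusted p = 0.273), and was called with the label batch as a term (-0.86, adjusted p = 0.0221). The summed oligodendrocyte markers were 4262 and 6259 CPM in the 2 libraries of 1 h, below those of CT17, and their part in these values was not tested.

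At 3 h Tsc22d3 and Sgk1 were lower than at dark CT17 and Cdkn1a was higher, against 3.24% of all genes called (2.2% higher and 1.05% lower). Tsc22d3 measured 54.4 and 60.1 CPM (log2 change -0.38 ± 0.08, adjusted p = 0.0109, edgeR), and Sgk1 20.7 and 22.3 CPM (-0.66 ± 0.16, adjusted p = 0.039). All 4 values lay below the CT17 libraries, and those of Sgk1 lay close to the dark CT23 level. Cdkn1a rose to 27.98 and 22.7 CPM (1.25 ± 0.13, adjusted p = 3.49e-05, edgeR) and kept its call in all 14 settings. Sgk1 lost its call in 6 and Tsc22d3 in 3 of the 14. Both were lost in the 12 libraries without the suffix (adjusted p = 0.158 and 0.0687), without CT17 replicate 2 (0.0905 and 0.0524) and without 3 h replicate 1 (0.237 and 0.182). Sgk1 was also lost without CT17 replicate 1s, 2s or 3 h replicate 2 (adjusted p of up to 0.168). The other 7 of the 10 genes did not pass: Fkbp5 measured 35.8 and 36.3 CPM, Plin4 12.1 and 13.5 CPM, and Ddit4 12.4 and 13.5 CPM, below its CT17 range of 15.9 to 17.5. Markers moved at 3 h as well. The oligodendrocyte sum was 6187 to 6774 CPM and the red blood cell sum 54.2 to 78.0 CPM, both below CT17. Log2 changes were negative for 9 of 10 oligodendrocyte, 9 of 10 astrocyte and all 8 meningeal markers. The meningeal sum was 105 and 78.7 CPM at 3 h, against 87.5, 87.2, 90.6 and 318 CPM at CT17. The astrocyte marker Aqp4 (-0.35, adjusted p = 0.0133) and the microglia marker P2ry12 (-0.43, adjusted p = 0.00385) were lower in edgeR. Their part in the results was not tested.

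Set directly against 1 h, which was decided after seeing the data, light of 3 h left Sgk1 lower by -1.63 ± 0.17 on the log2 scale (adjusted p = 3.62e-05, edgeR) and Tsc22d3 by -0.61 ± 0.08 (adjusted p = 0.000571). Of all genes 1.53% were called in that contrast (0.806% higher and 0.723% lower). Both genes kept the call in all 12 settings run. Sgk1 thus stood above its CT17 level after 1 h and below it after 3 h, while Cdkn1a was above it at both times (log2 change 0.42 from 1 h to 3 h, adjusted p = 0.217).

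Of the list of other glucocorticoid-induced genes, 2 were higher at 1 h, the small GTPase Arl4d (1.54, adjusted p = 0.000779) and the adhesion scaffold Nedd9 (0.44, adjusted p = 0.034), both in edgeR. At 3 h 3 were lower, the transcription factor Klf9 (-0.34, adjusted p = 0.0127), Txnip (-0.61, adjusted p = 0.0149) and the ceramidase Acer2 (-0.50, adjusted p = 0.0212), and 20 of 23 had negative changes with a median of -0.156. In the 12 libraries without the suffix 1 of the list was called at 1 h and 0 at 3 h. With 1 library left out at a time 1 to 2 were called at 1 h and 0 to 3 at 3 h. Of the 10 genes that neuronal activity also induces, 3 rose and 1 fell at 0.5 h, 5 rose at 1 h and 2 rose at 3 h. Among them the phosphatase Dusp1 had log2 changes of 2.59, 2.26 and 1.26, and the clock gene Per1 0.87, 1.74 and 0.62. Nr3c2 was lower at 3 h (-0.51, adjusted p = 0.00249, edgeR). Cdkn1a is also a textbook target of p53, and of 11 other p53 targets 2 were higher at 1 h, the antiproliferative gene Btg2 (2.61) and the kinase gene Plk3 (0.93). At 3 h the same 2 were higher (0.63 and 0.82) and 2 were lower, Ccng1 and Trp53inp1 (both -0.35).

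The comparison of 6 h of light with dark CT23 was matched for time of day. Angptl4 was higher and Tsc22d3 lower after light, against 1.41% of all genes called (0.998% higher and 0.413% lower). Angptl4 measured 16.8 and 17.7 CPM, more than in any other light-pulse library (3.50 to 7.71 CPM), with a log2 change of 1.25 ± 0.18 against CT23 (adjusted p = 0.00164, edgeR). It kept its call in all 12 settings. Tsc22d3 measured 27.97 and 32.1 CPM against 42.2 and 42.0 CPM (-0.48 ± 0.09, adjusted p = 0.00967, edgeR), and lost the call in 4 of 12 settings, which were the 12 libraries without the suffix (adjusted p = 0.0508) and the fits without either CT23 replicate or 6 h replicate 1 (adjusted p of up to 0.162). Angptl4 and Tsc22d3 kept their calls with the replicate number as a block, which called 295 of all genes against 205 without it. Sgk1 at 19.2 and 18.2 CPM overlapped dark CT23 (log2 change -0.01 ± 0.19), and so did Plin4 at 6.12 and 4.48 CPM. Zbtb16 measured 8.30 and 8.27 CPM, Ddit4 11.5 and 12.5 CPM and Fkbp5 21.4 and 25.2 CPM. All 3 lay below their CT23 libraries, and none passed. Cdkn1a at 12.97 and 16.04 CPM lay above its CT23 libraries (log2 change 0.46, adjusted p = 0.236). On the list of other glucocorticoid-induced genes the metallothioneins Mt2 (1.15, adjusted p = 3.68e-05) and Mt1 (0.57, adjusted p = 0.0325) were higher and Hif3a, a hypoxia-inducible factor subunit (-0.998, adjusted p = 0.0498), was lower, in edgeR. Of that list 1 to 2 genes were called with 1 library left out at a time, 2 with RLE scaling or the label batch as a term, and 1 in the 12 libraries without the suffix or with no technical term. The log2 changes of all 10 oligodendrocyte markers were negative at 6 h (median -0.206), and the astrocyte marker Gfap was higher (0.66, adjusted p = 0.045, edgeR). Their part in the results was not tested. Of the 17 PPAR and fatty acid oxidation genes, a pathway that also governs Angptl4 in other tissues, 0 were called in edgeR and 3 had an unadjusted p under 0.05, against 1372 of all 14524 genes.

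**Figure D3:**
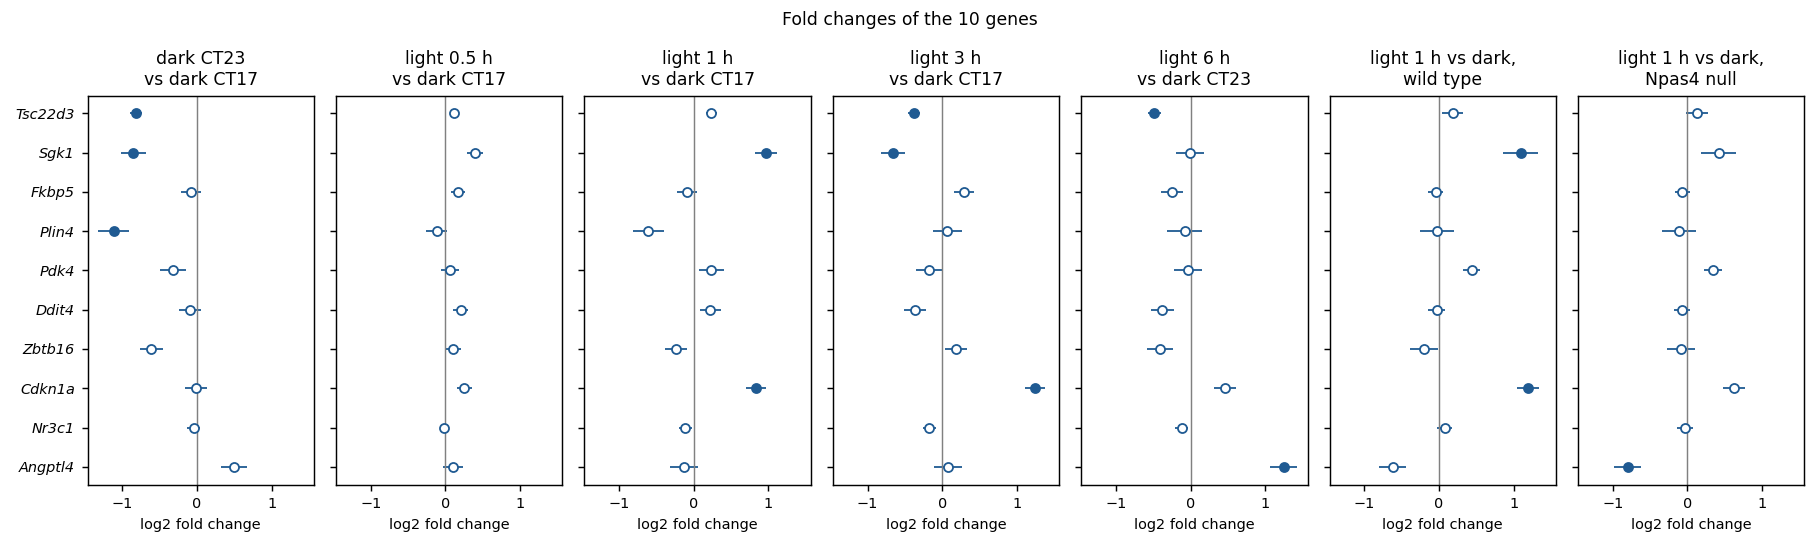
Log2 fold change with its SE for the 10 genes in 7 comparisons, with filled points for an adjusted p under 0.05 (edgeR). Sgk1 lay right of 0 at 1 h and left of 0 at 3 h and at dark CT23, and Angptl4 lay farthest right at 6 h.

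The Npas4 experiment asks whether the response to 1 h of light differs without Npas4. In wild-type littermates Sgk1 and Cdkn1a were higher after light, against 2.57% of all 15001 genes tested (2.23% higher and 0.34% lower). Sgk1 measured 41.8, 31.1 and 37.4 CPM in the dark and 53.4, 96.5 and 85.6 CPM after light, without overlap (log2 change 1.10 ± 0.23, adjusted p = 0.0231, edgeR). It lost the call in 5 of 10 settings, without any 1 of the dark replicates or light replicate 2 or 3 (adjusted p of up to 0.115). Cdkn1a measured 9.30, 8.37 and 7.77 CPM in the dark and 18.5, 18.1 and 21.3 CPM after light (1.19 ± 0.15, adjusted p = 0.000362, edgeR) and kept the call in all 10 settings. These are the same 2 genes as at 1 h in the light-pulse experiment, which shares no library with this one. Pdk4 measured 8.86, 8.92 and 8.78 CPM in the dark and 10.1, 13.1 and 12.7 CPM after light, without overlap (0.44, adjusted p = 0.0908), and passed in DESeq2 (adjusted p = 0.0298) and with the replicate number as a block (0.43, adjusted p = 0.0305). The block called 755 of all genes, against 386 without it, and Sgk1 and Cdkn1a kept their calls with it. Tsc22d3 overlapped, at 124, 106 and 130 CPM in the dark and 112, 143 and 155 CPM after light.

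In Npas4-/- mice Angptl4 was lower after light, against 1.56% of all genes (1.45% higher and 0.113% lower). It measured 7.11, 6.20 and 6.16 CPM in the dark and 4.08, 3.33 and 3.75 CPM after light (-0.80 ± 0.18, adjusted p = 0.0444, edgeR). The call was lost without any 1 of the 6 libraries of these 2 groups (adjusted p of up to 0.244). In wild type it measured 6.37, 4.07 and 3.89 CPM in the dark and 2.76, 3.32 and 3.18 CPM after light, also without overlap, and did not pass (-0.62, adjusted p = 0.134). Cdkn1a measured 10.1, 8.54 and 13.9 CPM in the dark and 15.6, 16.4 and 18.1 CPM after light in Npas4-/- mice (0.62 ± 0.15, adjusted p = 0.0645), and passed in DESeq2 (adjusted p = 0.00427). Sgk1 measured 35.4, 32.5 and 40.1 CPM in the dark and 66.3, 35.7 and 43.0 CPM after light, overlapping, and did not pass (0.42 ± 0.23 on the log2 scale, adjusted p = 0.784).

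The difference between the genotypes in the light response was tested directly. It passed for none of the 10 (adjusted p = 0.99986 in edgeR for all 10; 1 had an unadjusted p under 0.05, as did 342 of all 15001 genes) and DESeq2 called none either, against 0.0133% of all genes called in edgeR. For Cdkn1a the difference was -0.57, with a 95% interval of -1.05 to -0.09 that is not adjusted for the number of genes, and for Sgk1 -0.67, with an interval of -1.43 to 0.09. The intervals of the other 8 held 0 as well, and for Tsc22d3 it ran from -0.52 to 0.40. Between the genotypes none of the 10 was called in the dark (0.753% of all genes in edgeR) or after light (0.467%), with 2 and 1 at an unadjusted p under 0.05, against 1379 and 886 of all genes. DESeq2 called none of the 10 in either. The replicate block in the dark called 463 of all genes, against 113 without it, and none of the 10. After light, Sgk1 was 0.70 lower on the log2 scale in Npas4-/- mice (log2 change -0.70, adjusted p = 0.429).

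Libraries of 1 group differed together in many of the 10 genes. Replicate 1 of Npas4-/- after light held the highest value of its group for 9 of the 10, all but Cdkn1a, and replicate 1 of wild type after light the lowest of its group for 8 of the 10. For Sgk1 the 2 libraries stood at 66.3 and 53.4 CPM, so that the highest Npas4-/- library exceeded the lowest wild-type one. Tsc22d3, Fkbp5, Zbtb16, Plin4, Ddit4 and Nr3c1 had no call in this experiment, and Pdk4 had none in the main fit. Red blood cell markers summed to 1491 CPM in wild-type dark replicate 1 and to 116 to 323 CPM in the other 11 libraries, and meningeal markers to 268 CPM in Npas4-/- dark replicate 1. The SCN neuron markers summed to 2327 to 3665 CPM in Npas4-/- and 1684 to 2410 CPM in wild type in the dark. Their part in the results was not tested.

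**Figure D4:**
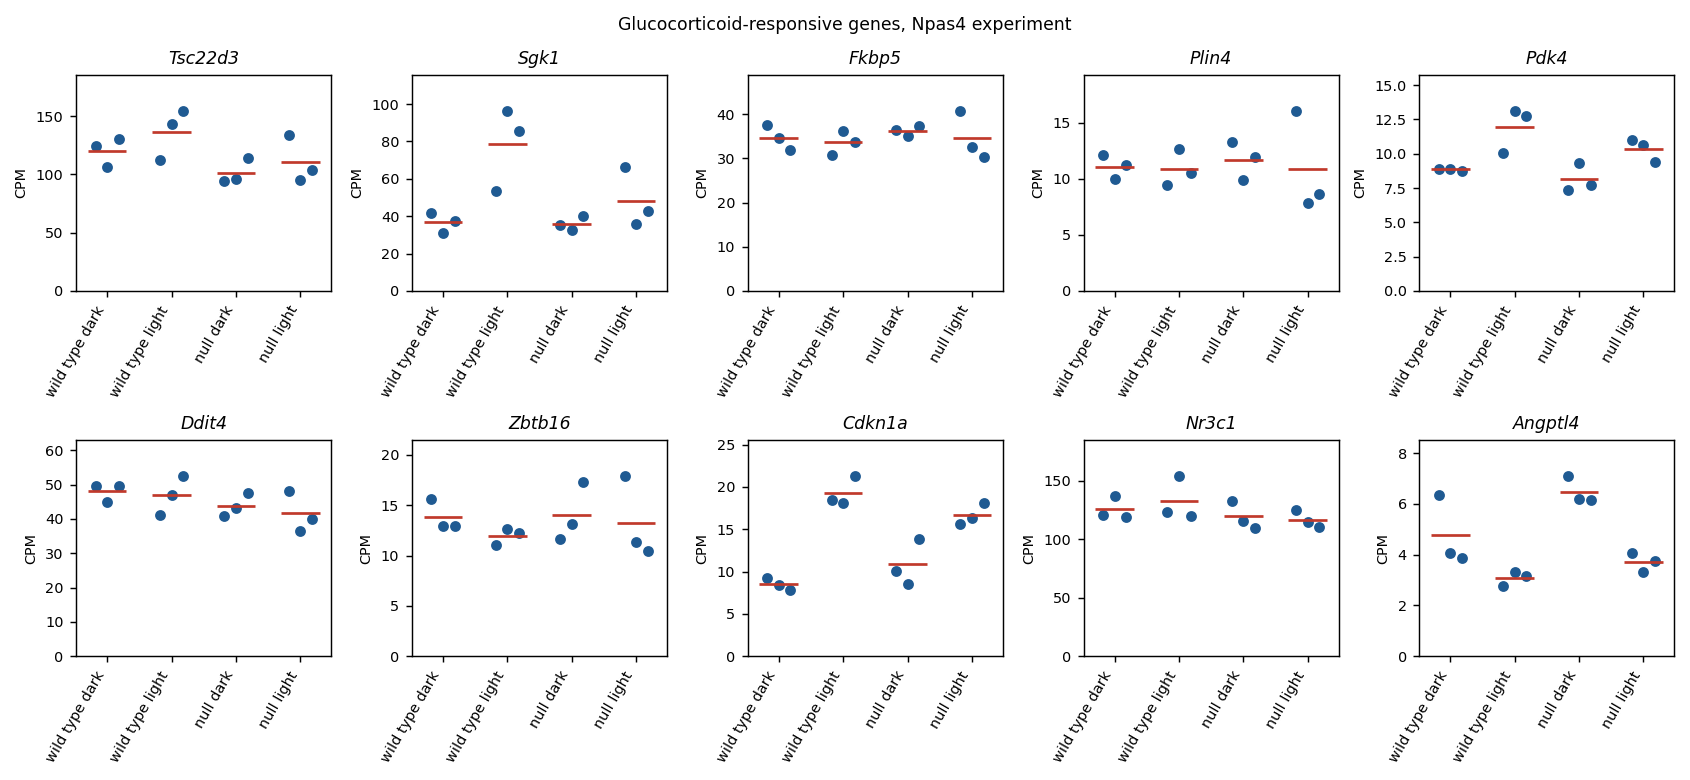
Level of each of the 10 genes in the 12 libraries of the Npas4 experiment, in CPM on axes that start at 0, with 1 point per library and a red line at the group mean (null is Npas4-/-). Cdkn1a was higher after light in every library of both genotypes, and the 3 Sgk1 values after light were spread from 35.7 to 66.3 CPM in Npas4-/- and from 53.4 to 96.5 CPM in wild type.

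On the list of other glucocorticoid-induced genes 3 were higher after light in wild type, Arl4d (1.65, adjusted p = 0.00115), Nedd9 (0.70, adjusted p = 0.00193) and the arrestin-domain gene Arrdc3 (0.36, adjusted p = 0.00995), in edgeR. In Npas4-/- none was called in edgeR or DESeq2, with 4 at an unadjusted p under 0.05 (1189 of all 15001 genes), and no difference in response between the genotypes passed. Of the 10 genes that neuronal activity also induces, 6 were higher after light in wild type and 5 in Npas4-/-.

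Across the 28 libraries, each experiment centred on its own mean and the suffix effect removed, the genes most like Tsc22d3 were Cables1 (Pearson r = 0.911), Klf15 (0.905) and Mertk, a receptor kinase for apoptotic cells (0.884), out of 14476 genes tested in both experiments. Those most like Sgk1 were Txnip (0.896), Klf9 (0.890) and Arl4d (0.878). Of these 6 genes all but Mertk are on the list of other glucocorticoid-induced genes, which holds 24 genes. That list was chosen with earlier results of these data known, so the match is not independent of these data. For Fkbp5 they were Mapk4 (0.890), Foxo4 (0.784) and Rassf8 (0.741), and for Nr3c1 Kctd12 (0.854), Ust (0.799) and Tcf4 (0.795). Among the 10 themselves, Plin4 and Zbtb16 (r = 0.856), Sgk1 and Pdk4 (0.833) and Tsc22d3 and Sgk1 (0.823) ran most alike, while Tsc22d3 and Angptl4 ran opposite (-0.765). For Tsc22d3 and Angptl4 the value was -0.876 within the light-pulse experiment and -0.391 within the Npas4 experiment. The libraries of a group share their treatment, so these values describe patterns over 10 groups and carry no test.

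**Figure D5:**
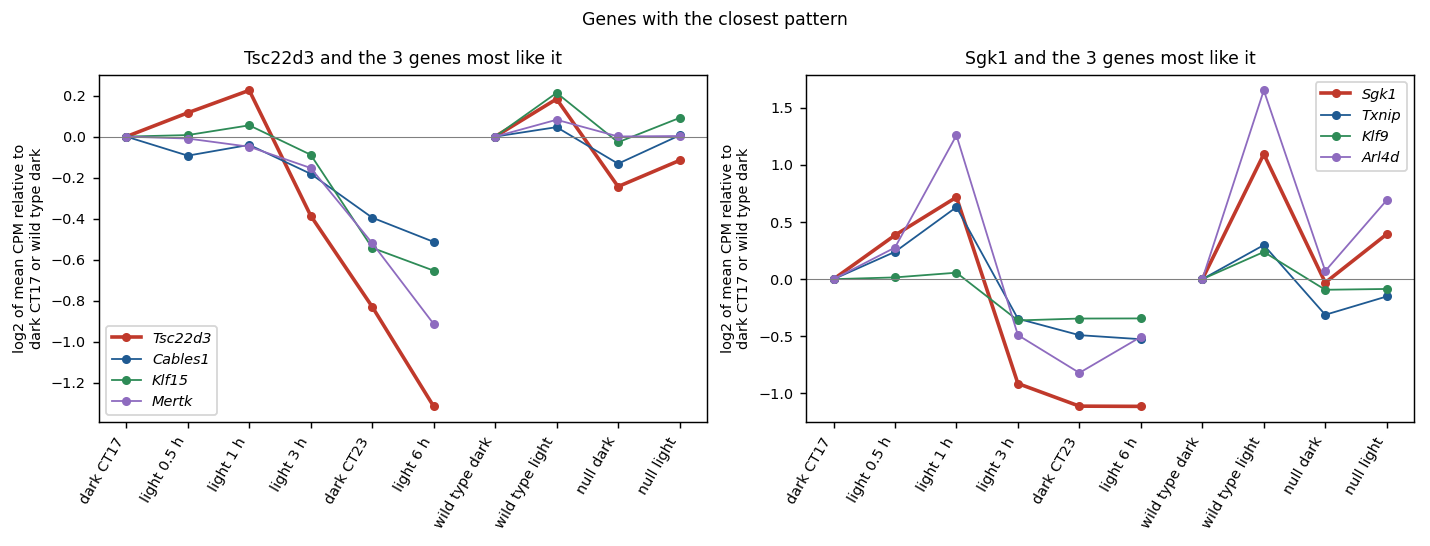
Group means of Tsc22d3, Sgk1 and the 3 genes most like each, as log2 of the mean CPM relative to dark CT17 (light-pulse experiment) or wild type in the dark (Npas4 experiment), without removal of the suffix effect. Tsc22d3 and its neighbours were lowest in dark CT23 and after 6 h of light, and Sgk1 was high after 1 h and low from 3 h on.

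Histone marks were read at the start sites: H3K4me3, found at active promoters, and H3K27ac, found at active enhancers too. Each mark had 1 peak list for dark and 1 for 1 h of light, each from 2 pairs of SCN, so that these values describe single libraries without replicates. Fold enrichments are those of the authors' peak caller. A peak of H3K4me3 lay within 1000 bases of 11 of the 15 start sites in the dark and 10 in light, and of 49.4% and 48.0% of all 32851 start sites. For H3K27ac the counts were 6 and 8 of 15, against 35.9% and 35.4% of all. Sgk1 start site 5, whose upstream letters hold the full core, had an H3K4me3 peak of 35.6-fold in the dark and 35.1-fold in light and an H3K27ac peak of 6.16-fold and 6.55-fold. These same peaks also lay within 1000 bases of Sgk1 start site 6. Neither H3K27ac peak overlapped the promoter of start site 5, and the one in light overlapped that of start site 6. The marks cannot be assigned to start site 5 alone. The proximal Tsc22d3 start site, without a hexamer, had peaks of both marks, at 26.5-fold in the dark and 23.3-fold in light for H3K4me3 and 10.1-fold and 7.68-fold for H3K27ac. The distal one, with the hexamer, had H3K4me3 (12.4-fold and 14.7-fold) and no H3K27ac peak in either list. The Tsc22d3 start site between them, also without a hexamer, had no H3K27ac peak in either list. Ddit4 had the highest folds of the 7 genes, with 53.6 and 47.4 for H3K4me3. Fkbp5 and the second Cdkn1a start site had an H3K27ac peak within this distance in light alone, of 5.05-fold and 6.36-fold. With 2000 bases on each side Cdkn1a had one in the dark too (4.96-fold), and at a -log10 q-value of at least 5 Fkbp5 had none in light either. Pdk4 had no H3K27ac peak and Plin4 no H3K4me3 peak within 1000 bases in either list.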

How the data were processed

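Bulk RNA-seq of pooled SCN was used with 4 histone peak lists; the 18 single-nucleus samples and the ChIP inputs were not used here. Per gene, raw read counts and RPKM were deposited; per the submitters' processing notes the series used STAR 2.7.1a and 2.5.2b, HTSeq 0.9.1, featureCounts 1.6.2, MACS2 2.1.1 and build mm10. Which tool made which file, and whether strand was used, is not given in the sources used here. The authors deposited peaks with a linear fold enrichment and a -log10 q-value.

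Counts were tested in edgeR 4.0.16 under R 4.3.3 (quasi-likelihood fit) with filterByExpr, TMM scaling and Benjamini-Hochberg adjustment over all genes tested (14524 and 15001; all 10 genes passed the filter in both). Each experiment was fitted as a whole. The light-pulse model held the 6 groups and the title suffix s; the label batch, which joins the suffix libraries to 7 without it, was an alternative. Log2 changes have the SE implied by the F statistic. DESeq2 1.42.0 was an alternative, and the fit was tested on simulated data. Motifs were searched in RefSeq promoters (GRCm38.p6).

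Libraries with the same number, with and without the suffix, differed beyond sampling noise (chi-square over its degrees of freedom 10.4 to 30.3) and were fitted as separate libraries. Pairs with unlike numbers, 1 with the suffix and 1 without, gave 10.8 to 33.9. These values cannot tell a second preparation of the same pool from a separate pool. As no label says whether libraries of 1 group were collected separately, the spread behind each p-value may be technical. No label says that a replicate number marks a shared batch. Deviations from the group means of same-numbered libraries correlated above 0.1 in all 3 pairs of wild type dark and light (0.198 to 0.264) and of the 2 genotypes in the dark (0.205 to 0.525), so the numbers were taken to pair those groups. Dark CT23 and 6 h of light also passed 0.1, at 0.128 in both same-numbered pairs, and the block result is given beside that comparison. With 2 libraries in each group these pairs necessarily gave the same value. In Npas4-/- dark and light (0.23, 0.483 and 0.0978), between the genotypes after light (lowest -0.0134) and in the other light-pulse comparisons the numbers were not taken to pair the groups. The main fit held no replicate block for any group. Calls, SEs and adjusted p-values come from it unless the block or another setting is named. The 10 genes, the lists and the model were chosen with earlier results of these data known. Named are all 10 genes, Npas4, the called genes of each list (at most 4, by smallest adjusted p) and the 3 genes most like Tsc22d3, Sgk1, Fkbp5 and Nr3c1.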

Additional observations from a re-analysis of the deposited data

Results flagged for a closer look

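After 0.5 h of light, replicate 1 stood apart from the other 3 libraries for Sgk1, at 36.5 CPM against 56.4 to 59.7 CPM. It was the 1 flag among 20 groups of 4 libraries checked, and chance alone flags about 1 in 20. Sgk1 and Tsc22d3 each lay above the dark CT17 libraries after 1 h of light and below them after 3 h. The direct contrast of 3 h with 1 h gave log2 differences of -1.63 for Sgk1 and -0.61 for Tsc22d3 (edgeR).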

How the results depend on the processing

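With the replicate number as a replicate block, 3, 0, 2, 3 and 2 of the 10 genes were called for dark CT23, 0.5 h, 1 h, 3 h and 6 h, and after light 3 were called in wild type, with Pdk4 added (adjusted p = 0.0305), and 2 in Npas4-/-, with Cdkn1a added (adjusted p = 0.00957). For 3 h against 1 h the block called 3, with Ddit4 added (adjusted p = 0.0443). Same-numbered libraries of the Npas4 experiment correlated above 0.1 in 16 of 18 pairs (median 0.202, against -0.111 over 36 pairs with different numbers), and those of the light-pulse experiment in 25 of 52. The block moved the count over all genes from 386 to 755 (wild type), 234 to 452 (Npas4-/-), 113 to 463 (genotypes in the dark), 70 to 227 (after light) and 39 to 74 (dark CT23). DESeq2 called 2 of the 10 in Npas4-/-, and over all genes 89 for dark CT23, 257 and 163 between genotypes and 11 for the difference in response (2 in edgeR). In the 12 libraries without the suffix s, 1 of the 10 was called for dark CT23, 1 at 3 h and 1 at 6 h, and 3, 44, 119, 197 and 119 of all genes were called from dark CT23 to 6 h. With no technical term 0 of the 10 were called at 1 h, and 115 of all genes at 6 h and in 3 h against 1 h. The label batch gave 69, 1218 and 1664 of all genes for dark CT23, 1 h and 3 h.

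Leaving out 1 library at a time gave 1 to 3 of the 10 for dark CT23, 0 at 0.5 h, 1 to 2 at 1 h, 1 to 3 at 3 h, 1 to 2 at 6 h, 2 to 3 for 3 h against 1 h, 1 to 3 in wild type and 0 to 1 in Npas4-/-. Over all genes it gave 7 to 37, 55 to 69, 107 to 210, 195 to 511, 77 to 238, 85 to 257, 262 to 359 and 155 to 223, and 48 to 94 and 32 to 42 between genotypes. An alternative chosen after seeing the data, without 0.5 h replicate 2, called 3, 0, 2, 3 and 2 of the 10 for dark CT23, 0.5 h, 1 h, 3 h and 6 h, and 3 for 3 h against 1 h, where Ddit4 was added (adjusted p = 0.0196).

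In the fits with 1 library left out, sign changes of genes called in neither fit were not recorded. In the other settings a log2 change turned sign in 12 cases, none of them called. For dark CT23 these were Nr3c1 (0.004858 with the label batch, 0.003112 with no technical term) and Fkbp5 (0.020756 without the suffix libraries). In the same 12 libraries Plin4 (0.164684) and Nr3c1 (0.015154) turned at 0.5 h, Fkbp5 (0.015440) at 1 h and Sgk1 (0.000655) at 6 h. At 3 h Plin4 (-0.177570 with the label batch, -0.100729 with no technical term) and Pdk4 (0.200411 and 0.055030) turned, and at 6 h Pdk4 (0.093580 with the label batch). The cause was not tested. Zbtb16 was called for dark CT23 without CT17 replicate 1 (-0.78, adjusted p = 0.0466, edgeR). RLE scaling and no filter on low counts changed no count of the 10. Depth limits Angptl4 most, with 46 reads in its lowest library.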

Other observations

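Wild-type dark libraries of the 2 experiments differed in level, each table scaled on its own and with no test made between them. Tsc22d3 measured 72.4 to 78.3 CPM at dark CT17 in the light-pulse experiment and 106 to 130 CPM in the dark in the Npas4 experiment. Ddit4 measured 15.9 to 17.5 and 44.8 to 49.7 CPM, whereas Plin4 measured 10.6 to 18.5 and 9.97 to 12.1 CPM and Sgk1 30.3 to 53.6 and 31.1 to 41.8 CPM.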
